A study of Mus musculus with 11 samples.

Results

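Lipoxygenases and the receptors for leukotrienes were represented on the inflammation panel by 7 of its 248 genes: the lipoxygenases Alox12, Alox15 and Alox5, the leukotriene B4 receptors Ltb4r1 and Ltb4r2, and the cysteinyl leukotriene receptors Cysltr1 and Cysltr2. They were taken by the symbols ALOX12, ALOX15, ALOX5, LTB4R1, LTB4R2, CYSLTR1 and CYSLTR2, and all 7 were found in both deposited tables. The samples were corneas of female C57BL/6 mice, labelled cornea epithelia, after 5 days of desiccating stress, which combined a drafty room of low humidity with scopolamine in the drinking water to reduce tears. During the stress all mice received eye drops, which held vehicle (PBS, 3 samples), the pan-Trk agonist pan at 10 µM (4 samples) or the TrkC agonist C1 at 10 µM (4 samples). Trk receptors are the tyrosine kinase receptors of the neurotrophins. Unstressed corneas were not analysed here, so every comparison is among stressed corneas. The age labels conflict: by one, all mice were 3 months old, and by the other, the C1 mice and those of pan replicate 4 were 22 to 24 months old and the rest 2 to 3 months. The study's methods give a further age, in weeks, for its mice as a whole.

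Lipoxygenases add oxygen to polyunsaturated fatty acids such as arachidonic acid, which phospholipase A2 releases from membranes. 5-lipoxygenase, best known from leukocytes, starts the synthesis of leukotrienes, whereas 12- and 15-lipoxygenases give rise to hydroxy fatty acids and, together with 5-lipoxygenase, to lipoxins. In the cornea, lipoxygenase products of the epithelium are known for their part in wound repair and in the control of inflammation. Leukotriene B4 attracts neutrophils through the receptor BLT1, encoded by Ltb4r1, while BLT2, encoded by Ltb4r2, is the receptor of lower affinity and is found on epithelia. The cysteinyl leukotriene receptors are best known from smooth muscle, endothelium and leukocytes.

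Levels are given as normalized counts, which are probe counts scaled in each sample by its housekeeping genes. Total probe counts per sample were 91955 to 133098 with vehicle, 64156 to 646446 with pan, where replicate 4 was the deepest, and 165828 to 525997 with C1. A single count was worth between 0.315 and 3.25 normalized counts. As the C1 samples had higher totals than the vehicle samples and another age label, treatment, depth and this label cannot be told apart by C1 and vehicle alone. Whether replicates came from separate mice or pools is not given for the RNA, so p-values measure the spread between these samples. In whole tissue, fewer cells of a type and less RNA per cell cannot be told apart either.

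Of the 7 genes, 4 were well detected: Alox12, Alox15, Ltb4r1 and Ltb4r2 had a mean log2 value of at least 5 and were above the background in 11 of 11 samples. Background here is the mean plus 2 SD of 15 genes of liver, heart, retina or T cells in the same sample, a limit between 7.44 and 35.1 normalized counts. Alox15 ranked 39, Alox12 70, Ltb4r1 87 and Ltb4r2 96 among the 248 probes by mean log2 value. These ranks describe probe counts and not amounts of RNA, since probes differ in efficiency. Alox5 was above the background in 8 of 11 samples, Cysltr1 in 6 and Cysltr2 in 1.

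RefSeq entries for the region before the gene start (GRCm38.p6) were at hand for Alox12, Alox5, Ltb4r1 and Cysltr2. The 250 bases before the start are shown for Alox12 and Ltb4r1, the well-detected genes among these. Their log2 values had r = 0.72 (n = 11), within the range of 0.50 to 0.81 over all pairs of the 4 well-detected genes. All samples share the 3 groups, so r is a description only. Capitals mark the GC box GGGCGG, searched on both strands, so that it appears as CCGCCC in Ltb4r1. Alox12 lies at chr11:70255371-70255620 on the minus strand and Ltb4r1 at chr14:55765712-55765961 on the plus strand, and both are printed 5′ to 3′ towards the gene.
Alox12: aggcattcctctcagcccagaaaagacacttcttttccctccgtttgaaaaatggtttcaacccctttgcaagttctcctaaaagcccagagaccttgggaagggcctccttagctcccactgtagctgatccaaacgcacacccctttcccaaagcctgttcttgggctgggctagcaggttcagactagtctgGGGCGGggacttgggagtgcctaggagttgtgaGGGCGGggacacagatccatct
Ltb4r1: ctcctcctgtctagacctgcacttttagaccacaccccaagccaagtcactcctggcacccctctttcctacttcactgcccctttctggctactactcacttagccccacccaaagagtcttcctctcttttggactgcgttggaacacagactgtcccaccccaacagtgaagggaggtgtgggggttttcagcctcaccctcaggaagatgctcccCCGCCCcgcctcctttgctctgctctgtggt
Alox12 held 2 GC boxes, Ltb4r1 1, Alox5 1 and Cysltr2 0, and 32.7% of 32851 promoter windows of this length hold at least 1. The 10-letter NF-kB motif, also searched on both strands, was found in 0 of the 4 windows and is held by 7.25% of all windows. The GC content was 54.0% for Alox12 and 56.8% for Ltb4r1, against 52.8% for Alox5 and 42.8% for Cysltr2. These matches describe the letters of the windows, and binding was not measured.

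Alox15 was higher in every C1-treated than in every vehicle-treated sample, as were 6.05% of the genes of the panel, and the difference did not pass the threshold over the panel. Alox15 encodes arachidonate 15-lipoxygenase, which in mice acts mainly as a 12-lipoxygenase. Its normalized counts were 925, 945 and 822 in vehicle replicates 1 to 3. In C1 replicates 1 to 4 they were 1399, 1560.1, 1184 and 1622, so that the lowest C1 sample lay above the highest vehicle sample. The means were 897 ± 65.8 (SD, n = 3) with vehicle and 1441 ± 196 (SD, n = 4) with C1. The log2 difference was 0.68 (standard error 0.15, 95% interval 0.31 to 1.04), which is 1.60-fold. Its adjusted p over 248 genes was 0.211 in limma (unadjusted 0.00342, the second smallest of the panel), and the exact two-sided permutation test gave p = 0.0571, the smallest that 3 samples against 4 allow.

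With pan, the Alox15 values were split. The normalized counts were 779, 1503, 791 and 1334 in pan replicates 1 to 4. Replicates 1 and 3 lay below the lowest vehicle sample, and replicates 2 and 4 above the highest. The mean was 1102 ± 372 (SD, n = 4), and the log2 difference from vehicle was 0.24 with a standard error of 0.30 (adjusted p = 0.795 from limma). Pan replicate 4, the pan sample with the age label of the C1 group and with a total in excess of theirs, was at 1334 and thus within the range of the C1 samples. Pan replicate 2, at 1503, has the other age label and a total of 101351.
The group means were in the order C1, pan, vehicle, and pan did not differ from either neighbour beyond the spread.
Depth and the conflicting age label moved with the C1 difference of Alox15. When the 3 groups were fitted together with the log2 total as a term, the difference was 0.44 (adjusted p = 0.634 from limma). With that age label as a term it was 0.22 (adjusted p = 0.936 from limma). The latter value rests on pan replicate 4 alone, as no other sample separates the label from C1. Pan replicate 4 also had a total of 646446, against 64156 to 101351 in the other pan samples. Its weight in the fit with the log2 total was not tested. With a prior variance that depends on the mean level, the adjusted p of Alox15 with C1 was 0.0379 in limma, and over the other alternatives it ranged from 0.0502 to 0.936.

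**Figure D1:**
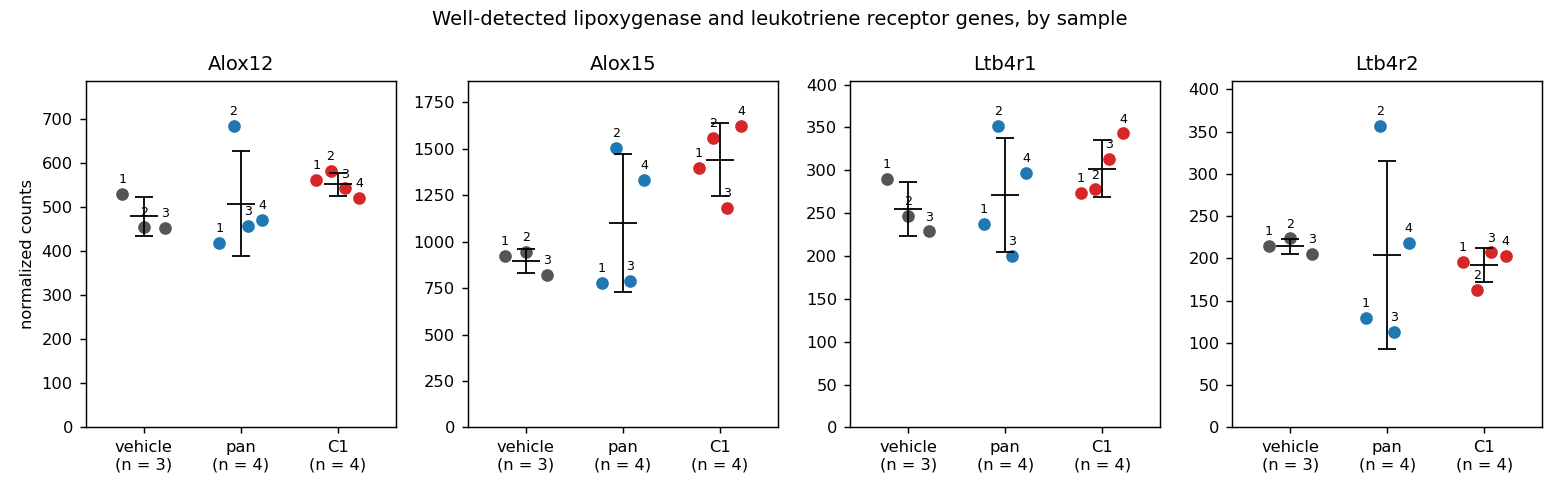
Normalized counts of Alox12, Alox15, Ltb4r1 and Ltb4r2 (vertical axes from 0, one scale per gene) in vehicle, pan and C1 samples. Points are samples with their replicate number and bars are the mean ± SD. The 4 C1 samples of Alox15 (1184 to 1622) lie above the 3 vehicle samples (822 to 945), while the pan samples spread around them.

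Alox12, encoding arachidonate 12-lipoxygenase, varied least of the 4 well-detected genes over the 11 samples, within a 1.63-fold range. Vehicle replicates 1 to 3 had 531, 454 and 452 normalized counts. Pan replicates 1 to 4 had 419, 683, 458 and 471, and C1 replicates 1 to 4 had 561, 583, 542 and 521. Replicate 2 was the highest pan sample, and 3 of 4 C1 samples lay above all vehicle samples. The log2 difference was 0.061 with pan (standard error 0.25, adjusted p = 0.942 from limma) and 0.21 with C1 (standard error 0.12, adjusted p = 0.567). The order of the group means was C1, pan, vehicle, and neighbours in this order did not differ beyond their spread.

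Ltb4r1 encodes the high-affinity leukotriene B4 receptor. It had 290.3, 247 and 229 normalized counts in vehicle replicates 1 to 3 and 237, 351, 199.9 and 297 in pan replicates 1 to 4. C1 replicates 1 to 4 had 274, 278, 314 and 343. The groups overlapped in every comparison, and their means were in the order C1, pan, vehicle. The log2 difference was 0.063 with pan (standard error 0.26, adjusted p = 0.942 from limma) and 0.24 with C1 (standard error 0.15, adjusted p = 0.586).

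Ltb4r2, the gene of the low-affinity receptor, was even among vehicle samples and uneven among pan samples. The vehicle replicates had 214, 224 and 206 normalized counts. Pan replicates 1 to 4 had 129.8, 356, 113 and 218, so that replicates 1 and 3 were below and replicate 2 was above all vehicle samples. C1 replicates 1 to 4 had 195, 163, 207 and 203, and 3 of 4 were below all vehicle samples. The SD of the log2 values was 0.061 with vehicle, 0.76 with pan and 0.16 with C1. Of 131 well-detected genes, 119 had a smaller SD than Ltb4r2 among the pan samples, where the median SD was 0.34. The log2 difference from vehicle was -0.22 with pan (standard error 0.40, adjusted p = 0.893 from limma) and -0.17 with C1 (standard error 0.14, adjusted p = 0.754), without a difference beyond the spread. The mean log2 value was lowest with pan (7.74 with vehicle, 7.58 with C1 and 7.52 with pan), whereas the mean normalized count was lowest with C1 (214, 192 and 204).
Pan replicate 2 was the highest pan sample for all 4 well-detected genes. It was also the highest of its group for 48.1% of the 131 well-detected genes of the panel, with a median of 0.26 (log2) above the rest of the group. Ltb4r2 was 1.27 above the rest there, Alox15 0.68, Alox12 0.61 and Ltb4r1 0.54. Pan replicate 1 was the lowest of its group for 43.5% of these genes. Such a position was not limited to pan. Vehicle replicate 1 was the highest of its 3 samples for 61.8% of these genes, with a median of 0.13 above the rest. The part of a sample-wide shift in these values was not tested.

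Ratios of 2 genes within a sample do not depend on the authors' factor for that sample, and they separated C1 from vehicle in 4 of 6 pairs of well-detected genes. These ratios were chosen after the values of the genes had been seen and are given without a test. For comparison, 19.3% of 8515 pairs of well-detected genes of the panel separated C1 from vehicle. The 6 pairs share genes and are not independent.
Alox15 over Ltb4r2 was 4.32, 4.23 and 4.0 in vehicle replicates 1 to 3 and 7.16, 9.59, 5.72 and 7.99 in C1 replicates 1 to 4, 1.79-fold higher by the means of the log2 ratios. Alox15 over Alox12 was 1.74 to 2.08 with vehicle and 2.18 to 3.11 with C1, so that Alox15 was higher relative to Alox12 in each C1 sample than in any vehicle sample. With pan it was 1.86, 2.20, 1.73 and 2.83, the last in replicate 4, which has the age label of the C1 group. Alox12 over Ltb4r2 was 2.03 to 2.48 with vehicle, 2.57 to 3.58 with C1 and 1.92 to 4.05 with pan.
The ratio of the leukotriene B4 receptors also separated C1 from vehicle. Ltb4r1 over Ltb4r2 was 1.36, 1.10 and 1.11 in the vehicle samples and 1.40, 1.71, 1.52 and 1.69 in the C1 samples. With pan it was 1.83, 0.986, 1.77 and 1.36, which overlaps with vehicle and with C1. With pan, 0 of the 6 pairs separated from vehicle, where 9.02% of all pairs did, and 0 of 6 separated C1 from pan, where 7.9% did.

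**Figure D2:**
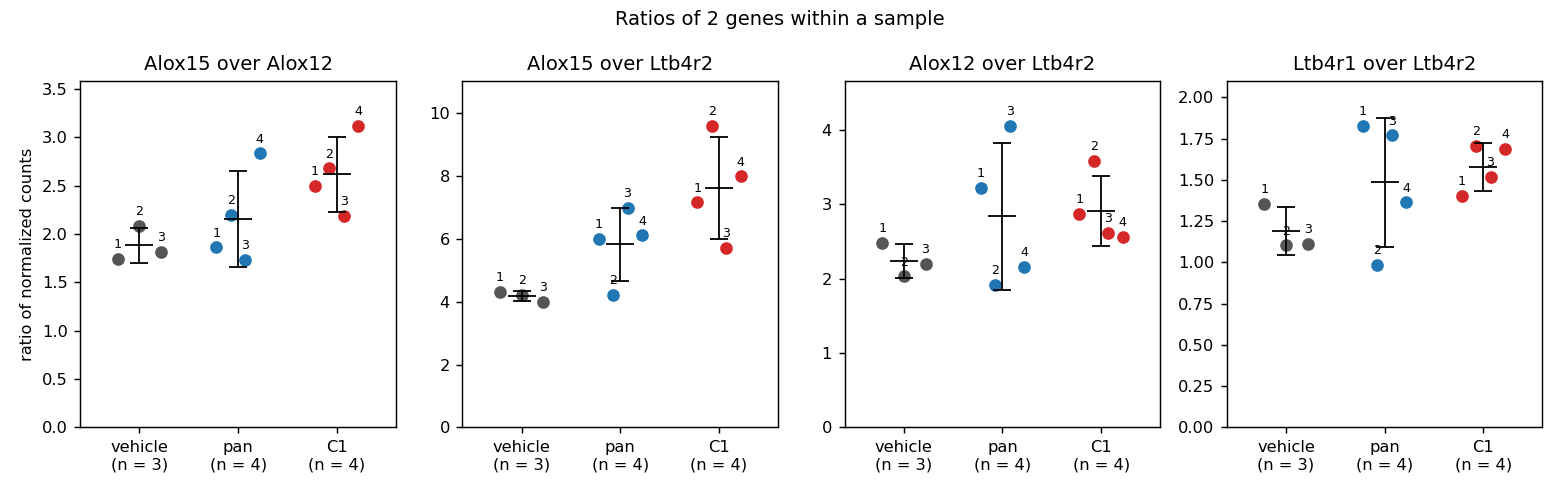
Ratios of the normalized counts of 2 genes within each sample (vertical axes from 0) for the 4 pairs whose C1 and vehicle samples did not overlap. Points are samples with their replicate number and bars are the mean ± SD. The Alox15 over Ltb4r2 ratio is 4.0 to 4.32 with vehicle and 5.72 to 9.59 with C1.

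Alox5, encoding the 5-lipoxygenase that starts leukotriene synthesis, was counted few times. Vehicle replicates 1 to 3 had 36.0, 27.7 and 24.7 normalized counts from 18, 12 and 15 probe counts. In pan replicates 1 to 4 it had 3.25, 24.4, 5.80 and 30.2 normalized counts from 1, 10, 2 and 96 probe counts. C1 replicates 1 to 4 had 23.4, 32.3, 25.3 and 29.4, from 17 to 68 probe counts. The values of pan replicates 1 and 3 stood apart from those of all other samples. Their exact Poisson 95% intervals, which cover counting error alone, end at 18.1 and 20.9 normalized counts and overlap those of vehicle replicates 2 and 3, which begin at 14.3 and 13.8. Both values lie under the upper limit of a gene counted 0 times, which is 3 counts or 9.74 and 8.69 normalized counts in these samples.
The log2 difference of Alox5 from vehicle was -1.42 with pan (standard error 0.77, 95% interval -3.20 to 0.36, adjusted p = 0.500 from limma) and -0.088 with C1 (standard error 0.19, adjusted p = 0.895). With pan, 3 of 4 samples were below all vehicle samples and the exact permutation p was 0.229. The order of the means was vehicle, C1, pan (29.5 ± 5.89, 27.6 ± 4.0 and 15.9 ± 13.4, SD, n = 3, 4 and 4). Without pan replicate 1 the log2 difference was -0.84, and without pan replicate 4, the deepest sample, it was -1.91 (adjusted p = 0.268 from limma). The C1 difference of Alox5 from vehicle was -1.08 with depth as a term (adjusted p = 0.634) and -2.06 with the conflicting age label as a term (adjusted p = 0.807), the latter again through pan replicate 4 alone.

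Cysltr1, the receptor for cysteinyl leukotrienes that antagonists of the montelukast type block, had 14.0, 6.91 and 16.4 normalized counts with vehicle from 3 to 10 probe counts. Pan replicates 1 to 4 had 22.7, 2.44, 17.4 and 11.3 from 1 to 36 probe counts. C1 replicates 1 to 4 had 23.4, 14.0, 17.0 and 16.8 from 17 to 39 probe counts. The groups overlapped, and 6 of 11 values were above the background. The log2 difference was -0.19 with pan (standard error 0.75, adjusted p = 0.942 from limma) and 0.58 with C1 (standard error 0.33, adjusted p = 0.567). The C1 difference ranged from 0.21 to 0.83 when one sample was left out, and reached 1.31 over all alternatives.

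Cysltr2, the second cysteinyl leukotriene receptor, was above the background in pan replicate 3 alone. There it had 3 probe counts, which is also the upper limit of a gene counted 0 times. The background limit of that sample, 7.44 normalized counts, was the lowest of all samples. It had 10.0, 11.5 and 9.87 normalized counts with vehicle from 5 or 6 probe counts, and 3.25, 4.88, 8.69 and 7.24 in pan replicates 1 to 4 from 1, 2, 3 and 23. All 4 pan values were below all vehicle values. The log2 difference of -0.89 (standard error 0.36) had p = 0.0366 and an adjusted p of 0.336 in limma, and the exact two-sided permutation p was 0.0571. Over the alternatives this difference ranged from -1.10 to -0.37. The 15 background genes had a median log2 difference of -0.71 in the same comparison, and 8.47% of the panel had all pan samples below all vehicle samples. With C1, Cysltr2 had 5.50, 7.01, 13.4 and 13.4 normalized counts and a log2 difference of -0.19 (standard error 0.35, adjusted p = 0.860 from limma).

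**Figure D3:**
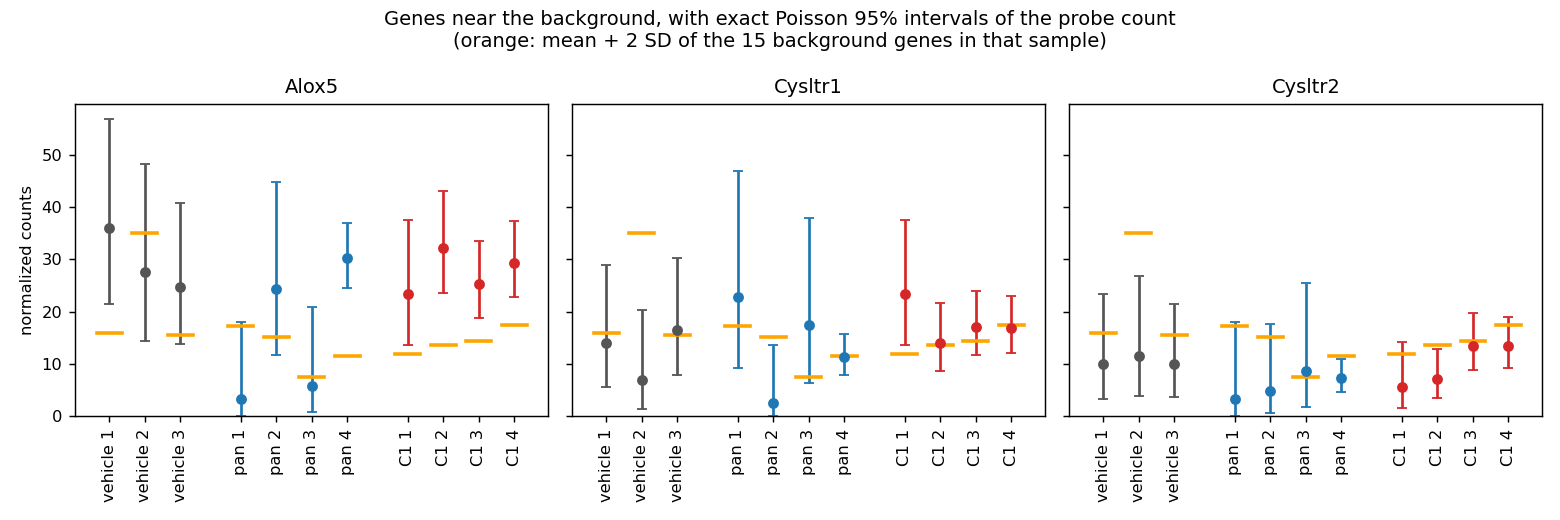
Normalized counts of Alox5, Cysltr1 and Cysltr2 in each sample (common vertical axis from 0), with exact Poisson 95% intervals of the probe count; orange bars mark the mean plus 2 SD of the 15 background genes in that sample. Alox5 is at 3.25 and 5.80 in pan replicates 1 and 3 and at 23.4 to 36.0 elsewhere, and the intervals are narrower in the deeper samples.

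Of the 7 genes, 0 were called at an adjusted p of 0.05 in limma with pan, where 2.02% of the panel were, and 0 with C1, where 0% were. A fit with voom weights from the recovered counts also called 0 of them. At an unadjusted p under 0.05, 1 gene (Cysltr2, lower) was found with pan, against 12.5% of the panel, and 1 (Alox15, higher) with C1, against 10.5%. The groups did not overlap for these 2 genes, each in its comparison, against 10.9% of the panel with pan and 10.1% with C1. The log2 difference was above 0 for 3 of the 7 with pan and for 4 with C1, against 30.2% and 47.2% of the panel. The median log2 difference of the 7 genes was -0.19 with pan and 0.21 with C1, and over all 248 genes it was -0.20 and -0.019. For the 4 well-detected genes the medians were 0.062 and 0.23, beside -0.067 and 0.022 for the 131 well-detected genes of the panel. Both comparisons use the same vehicle samples.

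**Figure D4:**
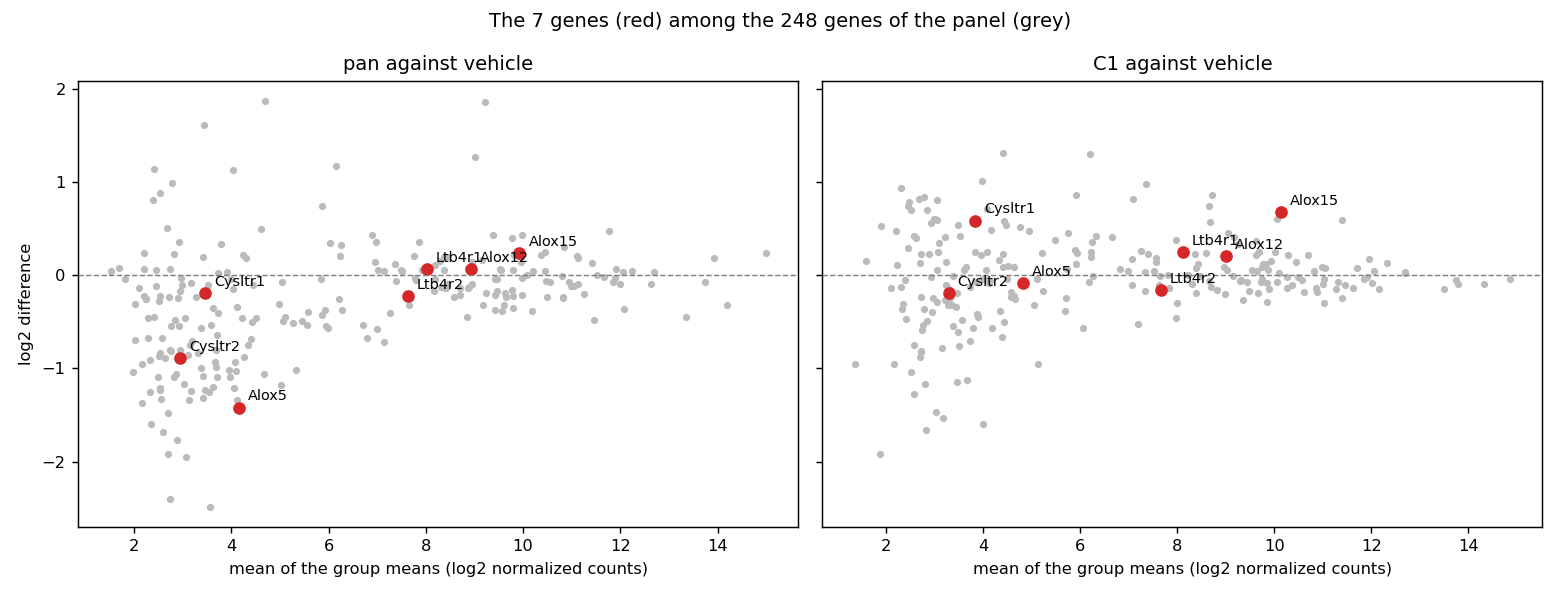
Log2 difference from vehicle (vertical axis) against the mean of the 2 group means (horizontal axis, log2 normalized counts) for pan (left) and C1 (right). Red points are the 7 genes and grey points the rest of the 248 genes; with C1, Alox15 (0.68) is the highest of the 7, and with pan, Alox5 (-1.42) is the lowest.

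C1 and pan were given at the same dose and for the same time, and so were compared directly as 1 pair of compounds, with p-values adjusted over the 248 genes. The log2 difference of C1 minus pan was above 0 for 7 of 7 genes and for 73% of the panel, and with each sample centred on its median it was above 0 for 6, as Ltb4r2 was then -0.082. At an adjusted p of 0.05, limma and voom called 0 of the 7, where limma called 0.403% of the panel, and 0 had an unadjusted p under 0.05, where 15.3% of the panel did. For Alox15 the difference was 0.44 (standard error 0.27, 95% interval -0.17 to 1.05, adjusted p = 0.459). It was 0.25 with depth and 0.10 with the conflicting age label as a term, the latter set by pan replicate 4 alone. Alox12 differed by 0.15 (95% interval -0.31 to 0.60), Ltb4r1 by 0.18 (-0.32 to 0.68) and Ltb4r2 by 0.057 (-0.74 to 0.86), all on the log2 scale. The intervals of the genes near the background were wider. Alox5 differed by 1.33 (-0.19 to 2.85, exact permutation p = 0.200), Cysltr1 by 0.78 (-0.64 to 2.19) and Cysltr2 by 0.70 (-0.22 to 1.62). When one sample was left out, Alox5 ranged from 0.75 to 1.83, Cysltr1 from 0.088 to 1.16 and Cysltr2 from 0.44 to 0.94. With the age label as a term the difference of Alox5 was -0.14, and with depth it was 0.52. These data bound the differences between the compounds and do not show that they act alike. The groups did not overlap for 0 of the 7 genes, where 8.06% of the panel were without overlap.

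**Figure D5:**
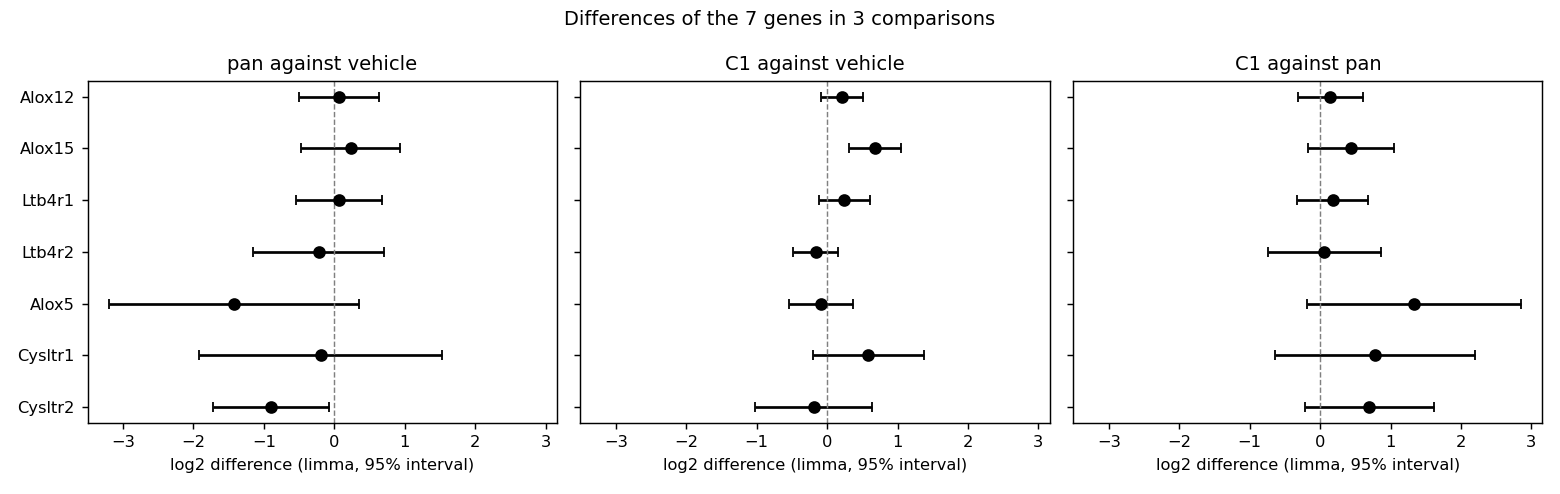
Log2 differences of the 7 genes (rows) with 95% intervals from limma for pan against vehicle, C1 against vehicle and C1 against pan. The interval lies wholly above 0 for Alox15 with C1 (0.31 to 1.04) and wholly below 0 for Cysltr2 with pan (-1.72 to -0.07), before adjustment over the panel.

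The supply of arachidonic acid was represented by Pla2g4a, which encodes cytosolic phospholipase A2. Its mean was 955 ± 49.0 normalized counts with vehicle (SD, n = 3), 831 ± 171 with pan and 899 ± 72.9 with C1 (both SD, n = 4). Its log2 difference was -0.22 with pan (standard error 0.24, adjusted p = 0.774 from limma) and -0.090 with C1 (standard error 0.13, adjusted p = 0.842). Of 11 genes of the eicosanoid pathway outside the 7, namely Pla2g4a, the cyclooxygenases and the prostanoid receptors, limma called 0 at an adjusted p of 0.05 in each comparison. At an unadjusted p under 0.05, Ptger4 was higher and Tbxa2r lower with pan (2 of 11, against 12.5% of the panel), and Ptger4 was higher with C1 (1 of 11, against 10.5%). Tbxa2r was not above the background in any sample. Ptgs2, Ptger1, Ptgfr and Ptgir were higher with C1 than with pan at this threshold (4 of 11, against 15.3%). The median log2 difference of these 11 genes was -0.75 with pan and -0.084 with C1, and 0.51 between C1 and pan. Over all 248 genes the medians were -0.20, -0.019 and 0.23, and over the 15 background genes -0.71, -0.19 and 0.54. Among Gnaq, Gnb1, Plcb1, Prkca and Prkcb, which act downstream of receptors coupled to G proteins, 0 of 5 had an unadjusted p under 0.05 in any comparison, and 0 passed after adjustment.

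Across the 11 samples, the genes most like each well-detected member were sought among the 131 well-detected genes by Pearson's r of log2 values, as a description. Alox15 was most like Cfl1 (r = 0.85), Ltb4r1 (0.81) and Mapkapk2 (0.78). Ltb4r1 was most like Mapkapk2 (0.90), Cfl1 (0.89) and Mafk (0.89). Alox12 was most like Il6ra (0.84), Cebpb (0.83) and Nfkb1 (0.81), and Ltb4r2 was most like Traf2 (0.93), Nr3c1 (0.93) and Mafg (0.90). Among the 4 members themselves, r ranged from 0.50 for Alox15 with Ltb4r2 to 0.81 for Alox15 with Ltb4r1. All points share the 3 groups, the depth and the scaling factor of their sample.

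The panel holds no keratin or other gene that defines the corneal epithelium, so the label could not be checked directly, while 5 cytokine genes that epithelia make (Il1a, Il1rn, Il18, Areg, Tslp) summed to 3808 to 5268 normalized counts. The 8 macrophage genes summed to 222 to 357 normalized counts with vehicle, 161 to 229 with pan and 262 to 369 with C1, with Trem2 at the background in all samples. The log2 difference was above 0 for 1 of these 8 with pan, against 30.2% of the panel, for 7 with C1, against 47.2%, and for 8 between C1 and pan, against 73%. Of the 15 background genes, 4 were above 0 with pan, 5 with C1 and 13 between C1 and pan. In limma 0 of the 8 passed an adjusted p of 0.05. C3ar1 was lower at an unadjusted p under 0.05 with pan (1 of 8, against 12.5% of the panel). It was also lower with C1 (1 of 8, against 10.5%), where it was opposite in sign to the other 7. At this threshold C1qa, C1qb and Mrc1 were higher with C1 than with pan (3 of 8, against 15.3%). Alox5, which macrophages express, had a log2 difference below 0 with pan like 7 of the 8, as did 173 of the 248 genes of the panel. With C1 the difference of Alox5 was -0.088, whereas 7 of the 8 were above 0. The part of macrophages in the values of Alox5 was not tested. The granulocyte genes Cxcr1, Cxcr2 and Ccr3 summed to 8.25 to 41.5 normalized counts and were at the background in all pan and C1 samples. The 4 T cell genes summed to 16.2 to 41.5 normalized counts, and Flt1, the endothelial gene, had 9.74 to 39.6. The 3 dendritic cell genes summed to 78.1 to 247.6 normalized counts, with Ccr7 and H2-Ea at the background in all samples. Of the 3, limma called 1 (H2-Ea, lower with pan) at an adjusted p of 0.05, against 2.02% of the panel. In the same comparison, 1 of the 15 background genes was also called as lower, and their median log2 difference was -0.71. The call of H2-Ea is thus one of a probe at the background.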

How the data were processed

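RNA of the corneas was measured by the authors on the NanoString mouse Inflammation panel. The deposited values are log2 normalized counts, which the authors made in ROSALIND by dividing probe counts by the geometric mean of housekeeping probes. Samples that failed their quality control were left out by the authors. The tables also hold the authors' own fold changes and p-values, which were not used. Vehicle values were identical in both tables. Within each sample the values were whole multiples of one step (tolerance 0.01), taken as 1 count, and probe counts were recovered from it. Symbols in the tables were matched to RefSeq (GRCm38.p6), and the gene IDs of 3 genes outside the 7 name another gene.

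Each comparison was fitted to the deposited log2 values of 248 genes by limma 3.58.1 (R 4.3.3), without filter or pseudocount, with Benjamini-Hochberg adjustment. The fit was tested on simulated data. Permutation tests enumerated all splits with scipy 1.17.1 under Python 3.11.15. Further packages were pandas 2.3.3, numpy 2.4.6 and, for plots, matplotlib 3.10.9. The genes to be named were the 7, Pla2g4a, the 3 genes most like each well-detected one, and members of short counts. The members and lists were chosen with earlier results of these data known. Alternatives are given in the closing section. The western blots, stained corneas and barrier measurements were not analysed here.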

Additional observations from a re-analysis of the deposited data

How the results depend on the processing

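Alox5, Cysltr1 and Cysltr2 had the fewest counts of the 7, each with 1 count in at least 1 pan sample. Cysltr1 and Cysltr2 were at the background in deep samples too. They had 36 and 23 counts in pan replicate 4 and 39 and 31 in C1 replicate 4. Of the 7 genes, 0 passed an adjusted p of 0.05 in all alternatives run, except that with a mean-dependent prior variance 1 (Alox15) passed with C1, where 2 genes of the panel passed in place of 0. Testing the well-detected genes alone gave 1 gene of the panel with C1. With pan, 5 genes of the panel passed; the count was 2 without moderation, 1 over well-detected genes alone, 1 with background subtracted, 8 with depth (log2 total) as a covariate and 9 with the conflicting age label, and 1 to 7 when one sample was left out. It was 1 without vehicle replicate 2 or 3, 2 without pan replicate 1 or 4 and 3 without pan replicate 2 or 3. Between C1 and pan, 1 gene passed; it was 0 with a mean-dependent prior variance, a pseudocount of 10, median centring, all 3 groups in one fit, voom weights from recovered counts, and either covariate, and 0 to 1 when one sample was left out (0 without pan replicate 1 or 3 or any one C1 sample). With C1 against vehicle, leaving out one sample gave 0 genes.

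Directions turned only for differences within their standard error, with the exception of Alox5 between C1 and pan, which was -0.14 in place of 1.33 when the conflicting age label was a covariate. Cysltr1 with pan was 0.0011 with a pseudocount of 10 and 0.60 with background subtracted, and with C1 background subtraction gave 0.093 for Alox5 and 0.43 for Cysltr2. Ltb4r2 between C1 and pan was -0.082 with median centring, -0.0064 with voom weights, -0.13 with depth and -0.19 with the conflicting age label as a covariate. When one sample was left out, the log2 difference with pan ranged from -0.091 to 0.14 for Alox12, from 0.064 to 0.38 for Alox15, from -0.072 to 0.20 for Ltb4r1, from -0.54 to 0.012 for Ltb4r2 and from -0.58 to 0.50 for Cysltr1. With C1 it ranged from -0.21 to 0.067 for Alox5, from -0.38 to 0.049 for Cysltr2 and from 0.61 to 0.77 for Alox15, and between C1 and pan from -0.18 to 0.38 for Ltb4r2. With C1, Cysltr2 was -0.64 with depth and -0.68 with the conflicting age label as a covariate, and Alox5 was -1.08 and -2.06. The cause of these shifts was not tested.

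The replicate numbers do not pair the samples: deviations of samples with the same number correlated from -0.054 to 0.57, and 4 of 7, 0 of 7 and 3 of 8 samples correlated best with their own number in the 3 comparisons. With the replicate number as a block, 5, 0 and 1 genes of the panel and 0 of the 7 passed, and the log2 difference of Alox15 with C1 was 0.62.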
